A study of Mus musculus with 6 samples.

Results

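The transcripts described here are those of 6 genes, the Eyes absent genes Eya1, Eya2, Eya3 and Eya4 and the Sine oculis homeobox genes Six2 and Six4. They are 6 of the 18194 genes named by single-symbol probe sets. All probe sets that name only one of them were taken, which gave 17 of 34958 such probe sets among 45101 on the array. Eya3, Eya4 and Six4 have 4 each, Eya1 has 3, and Eya2 and Six2 have 1 each. Six-family proteins bind DNA through a homeodomain. Eya proteins do not bind DNA themselves: they are coactivators recruited by Six-family proteins, and they also carry a phosphatase domain. The pair works in a network with Pax and Dach factors and is best known from the preplacodal ectoderm, the band of head ectoderm beside the neural plate that gives rise to the nasal, lens and ear placodes and cranial ganglia. It also acts in head mesenchyme, kidney and muscle. Which cells of the dissection held its transcripts was not tested.

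The tissue was hand-dissected rostral forebrain of the mouse, cut at the level where the lateral ventricles end caudally. Embryos were Fezf1-/- Fezf2-/-, lacking a pair of forebrain zinc-finger repressors (called knockout below), or wild type, and both were taken on embryonic day 9.5, 10.5 or 12.5 (written E9.5, E10.5 and E12.5). Each of the 6 groups was 1 one-colour Affymetrix array. The labels give no strain, sex or number of embryos per array, and nothing shows whether an array held 1 embryo or a pool.

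Values below are scaled signals, the deposited intensities after quantile normalization, in arbitrary units and comparable between arrays but not between probe sets. The median of all scaled values was 24.0, and probe sets whose mean lay above the median probe set were tested, 19593 in all. A change passed where its p-value, adjusted over all of these by the Benjamini-Hochberg method, was under 0.05. Fezf2 stood at 0.458, 0.904 and 1.66 in the knockout at the 3 ages, against 78.9, 146 and 249 in wild type. Fezf1 had 97.7, 78.4 and 49.5 in the knockout, against 251, 143 and 174 in wild type, lower at each age but still above the array median. Of 10 listed neuroepithelial markers, 9 were measured, and all 9, Sox2 and Fabp7 among them, were above the array median on all 6 arrays. The actin 3′ to 5′ probe set ratio, a sign of RNA or labelling quality, was 3.21, 1.59 and 1.445 in the knockout at the 3 ages, against 3.12, 1.84 and 1.444 in wild type. The same ratio for Gapdh was 0.949, 0.858 and 0.823 in the knockout, against 0.896, 0.843 and 0.843 in wild type. At E10.5 the arrays also differed in Xist, which coats the inactive X chromosome, with 11.7 in the knockout, against 573 in wild type.

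The promoters of the Six-family genes are shown because both genes fell with age by more than most probe sets of the group, and that of Eya4 because its brightest probe set changed least. RefSeq (GRCm38.p6) supplied a window of 250 bases before to 50 after the start for 4 of the 6 genes: Eya3, Eya4, Six2 and Six4. Capitals mark 3 short motifs, each searched on both strands: the GC box GGGCGG, the CCAAT box (CCAAT) and TCAGGTT, the core of the MEF3 element that Six-family proteins are known to bind. TATAAA was searched too and was in none of these windows. The windows are Six2 at chr17:85688205-85688504 (minus strand), Six4 at chr12:73113196-73113495 (minus strand) and Eya4 at chr10:23349894-23350193 (minus strand).
Six2: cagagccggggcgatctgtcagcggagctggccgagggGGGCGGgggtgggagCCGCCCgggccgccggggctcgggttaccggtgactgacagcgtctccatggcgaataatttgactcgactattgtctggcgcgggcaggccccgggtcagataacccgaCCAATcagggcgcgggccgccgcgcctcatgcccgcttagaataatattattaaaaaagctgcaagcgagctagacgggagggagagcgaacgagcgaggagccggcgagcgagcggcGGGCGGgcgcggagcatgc
Six4: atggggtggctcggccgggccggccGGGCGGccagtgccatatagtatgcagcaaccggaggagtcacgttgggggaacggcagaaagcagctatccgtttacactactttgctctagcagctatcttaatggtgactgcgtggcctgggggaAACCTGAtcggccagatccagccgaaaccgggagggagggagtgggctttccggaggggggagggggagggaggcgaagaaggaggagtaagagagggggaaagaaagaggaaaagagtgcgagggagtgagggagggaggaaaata
Eya4: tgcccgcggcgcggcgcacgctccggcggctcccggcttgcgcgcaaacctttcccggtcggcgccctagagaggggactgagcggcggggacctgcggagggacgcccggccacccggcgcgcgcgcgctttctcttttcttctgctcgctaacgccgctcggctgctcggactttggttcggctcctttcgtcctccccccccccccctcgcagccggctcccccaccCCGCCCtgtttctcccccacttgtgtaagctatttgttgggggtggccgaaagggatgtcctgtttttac
The Six2 window held 3 GC boxes and 1 CCAAT box, at -87 from the start. That of Eya4 held 1 GC box, at -20, and that of Six4 held 1 GC box and 1 TCAGGTT match on the opposite strand at -97. A second annotated start of Six4 gives an overlapping window with a CCAAT box at -73. Eya4 also has a second annotated start, from which its GC box lies at -73. No 2 matches overlap. Across all 32851 promoter windows in the table, 35.7% hold a GC box, 37.4% a CCAAT box, 13.6% TATAAA and 4.07% TCAGGTT. These matches are descriptions of the windows and were not tested for binding.

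The Six-family genes were compared first along age, a comparison in which the knockout and wild-type arrays of an age serve as its 2 samples. Six4, a homeodomain factor of placodes, cranial ganglia and muscle precursors, had the most negative change on the log2 scale used here, and Six2, known for keeping nephron progenitors in the kidney and also present in head mesenchyme, fell too. The brightest Six4 probe set had 309, 224 and 20.3 in the knockout at the 3 ages, against 280, 175 and 20.5 in wild type. At E12.5 both arrays were below the array median, where the signal over background is not known, whereas at the earlier ages both were well above it. Between E9.5 and E12.5 the change was -3.48 ± 0.16 on the log2(signal + 6.50) scale (limma moderated SE, 2 arrays per age, adjusted p = 3.51e-07). A second Six4 probe set, which the platform annotation traces to the same sequence record, had 287, 211 and 16.9 in the knockout, against 310, 163 and 14.7 in wild type, a change of -3.78 ± 0.17 (limma adjusted p = 3.48e-07). The third, from another record, had 186, 157 and 25.1 in the knockout, against 149, 141 and 26.1 in wild type. It fell by 2.43 ± 0.17 (limma adjusted p = 2.85e-06). In both genotypes all 3 Six4 probe sets stood in the order E9.5, E10.5, E12.5, highest first, although for the third the E9.5 and E10.5 arrays overlapped.

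Six2 followed another course before E12.5. Its single probe set had 173, 251 and 22.1 in the knockout at the 3 ages, against 143, 308 and 29.6 in wild type. Both E10.5 arrays were above both E9.5 arrays, and both E12.5 arrays were far below the rest. From E9.5 to E12.5 Six2 fell by 2.35 ± 0.18, or 5.10-fold (limma adjusted p = 5.04e-06). In the gene order of the RefSeq annotation a coding gene beside Six2 is Six3, a factor of the anterior forebrain and eye. Six3 had 165, 181 and 133 in the knockout, against 189, 211 and 151 in wild type, and its change of -0.31 ± 0.13 did not pass (limma adjusted p = 0.0659). The difference between the neighbours was not tested.

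**Figure D1:**
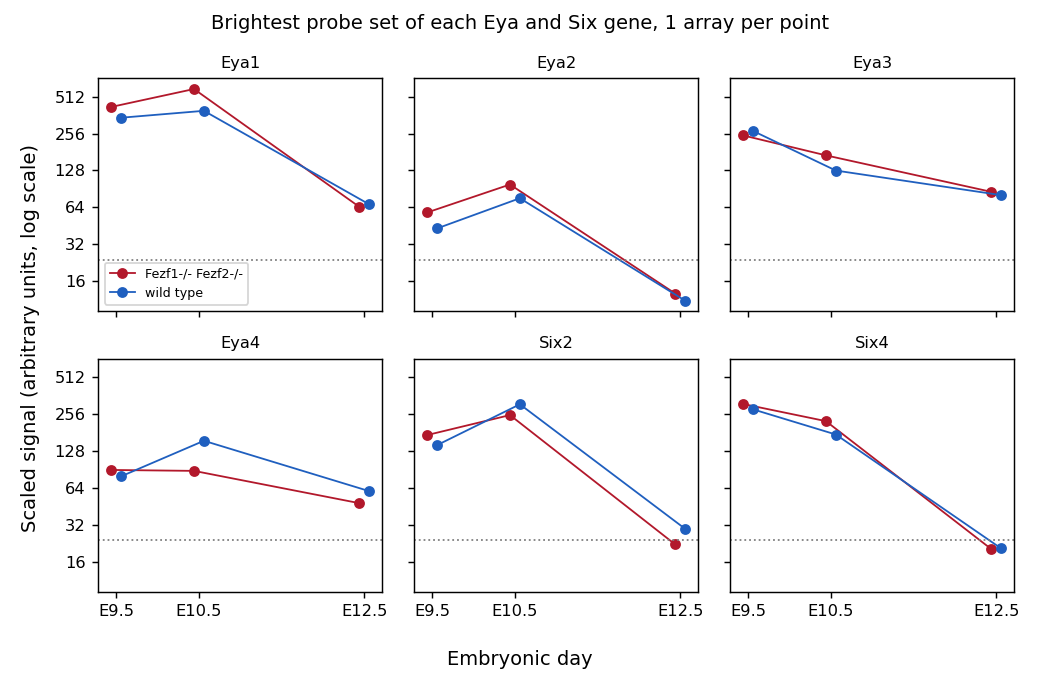
Scaled signal (log axis, arbitrary units) of the brightest probe set of each gene against embryonic day, 1 array per point, knockout in red and wild type in blue, with the median of all values (24.0) dotted. Six4 goes down at each age, Six2 and Eya2 are higher at E10.5 than at E9.5 in both genotypes, and Eya2 and Six4 end below the dotted line in both genotypes.

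Among the Eya coactivators, Eya1, mutated in human branchio-oto-renal syndrome, had the most negative change on this scale. Its brightest probe set had 422, 591 and 64.6 in the knockout at the 3 ages, against 345, 393 and 67.7 in wild type. The E9.5 and E10.5 arrays overlapped, and both E12.5 arrays lay below all of them. Between E9.5 and E12.5 the change was -2.42 ± 0.16, 5.35-fold lower (limma adjusted p = 1.80e-06). A second Eya1 probe set had 105, 115 and 20.5 in the knockout, against 72.5, 65.4 and 39.6 in wild type, and fell by 1.41 ± 0.32 (limma adjusted p = 0.00398). Its fall was 2.04 in the knockout and 0.78 in wild type. On the deposited values, without scaling between arrays, this second probe set no longer passed (adjusted p = 0.0539).

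Eya2, found in placodes and in muscle precursors, had 58.2, 98.3 and 12.7 in the knockout, against 43.1, 76.0 and 11.1 in wild type. Like Six2, it was higher on both E10.5 arrays than on both E9.5 arrays, and both E12.5 arrays were below the array median, so its size rests on dim values. Between E9.5 and E12.5 the change was -1.63 ± 0.23 (limma adjusted p = 2.14e-04).

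Eya3, the most broadly expressed of the family, was above the array median at every age by its 2 brighter probe sets. The brightest had 247, 170 and 85.7 in the knockout, against 269, 128 and 80.5 in wild type, and fell by 1.56 ± 0.16 (limma adjusted p = 2.48e-05). The next had 140, 120 and 91.9 in the knockout, against 129, 147 and 95.4 in wild type, a smaller fall of 0.50 ± 0.16 (limma adjusted p = 0.0214). Another, dim Eya3 probe set differed from these, with 22.0, 30.9 and 33.7 in the knockout, against 37.4, 30.5 and 12.8 in wild type, and it did not pass (-0.34 ± 0.38, limma adjusted p = 0.461). The Eya3 probe sets differ in the size of the age change, and for the dim one the genotypes went in opposite directions.

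Eya4, mutated in a human form of deafness, changed least among the brightest probe sets. The brightest had 89.7, 88.1 and 48.0 in the knockout, against 79.7, 155 and 60.2 in wild type. All arrays of all ages were above the array median. The change of -0.59 ± 0.22 passed narrowly (limma adjusted p = 0.0432). It did not without the filter (0.0928), without the variance trend (0.0850) or with a common trimmed mean in place of quantile scaling (0.382). On the deposited values the change was 0.15 and did not pass. The second had 48.4, 65.0 and 28.8 in the knockout, against 37.4, 59.0 and 30.1 in wild type, and its change of -0.45 ± 0.23 did not pass (limma adjusted p = 0.113) except without the variance trend (0.0443). The E12.5 arrays of Eya4 nevertheless lay below the E10.5 arrays for both probe sets in both genotypes.

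**Figure D2:**
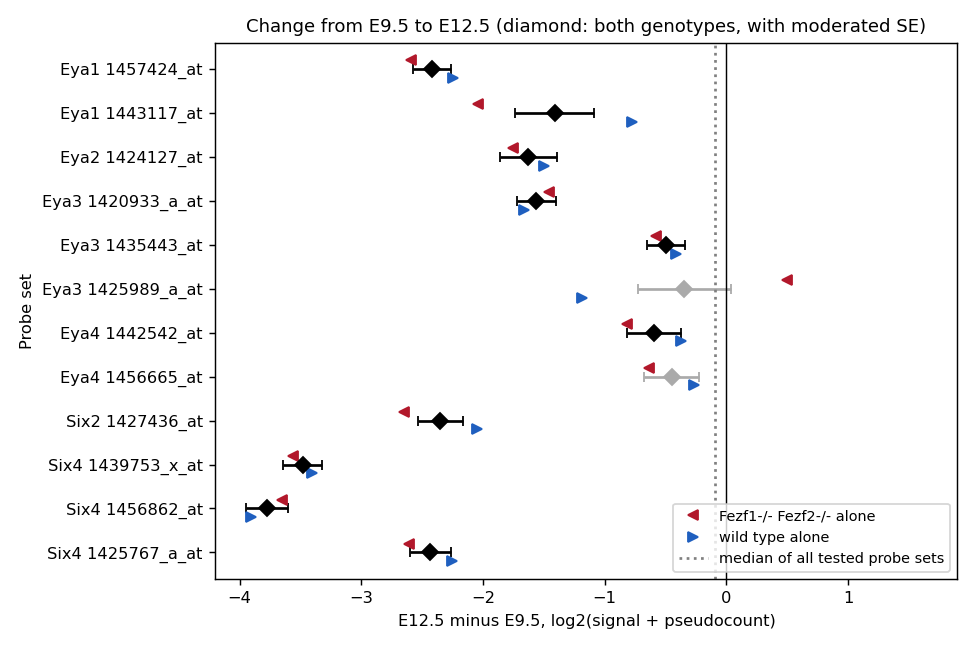
Change from E9.5 to E12.5 on the log2(signal + pseudocount) scale for the 12 tested probe sets, those of a gene running down from the brightest to the dimmest. Diamonds are limma's estimate over both genotypes with its moderated SE (black where it passed, grey where it did not), triangles the knockout and wild type alone, and the dotted line the median of all tested probe sets (-0.09). The Six4 probe sets lie farthest left (-3.78 to -2.43), and only the dim Eya3 probe set has a genotype on each side of 0.

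Over all 6 genes, 12 of the 17 probe sets were tested and 10 of these 12 fell from E9.5 to E12.5, with at least 1 passing for every gene, while 0 rose. Among all 19593 tested probe sets, 32.9% fell and 26.3% rose by the same rule, 59.2% in all. The median change was -1.59 for the 12 Eya-Six probe sets and -0.09 for all tested. The genes were chosen with earlier results of these data known, and probe sets of the same gene are not independent. A probe set high only at the early ages can also pass the filter on its mean. The counts in this paragraph are therefore descriptions, not a test of the group. Both E12.5 arrays were below both E9.5 arrays for 11 of the 12, where 45.3% of all tested probe sets were, and above both for 0 (36.3% of all). The same held against E10.5 for 11 of the 12 (44.4% of all), and the opposite for 0 (31.6% of all). Between E9.5 and E10.5 the group split: 3 probe sets, of Six2, Eya2 and Eya4, were higher on both E10.5 arrays (33% of all), 3, of Six4 and Eya3, were lower on both (34% of all), and the other 6 overlapped. The second Eya3 and the brightest Eya4 probe set no longer passed with a common trimmed mean in place of quantile scaling (adjusted p = 0.268 and 0.382). On the deposited values, where the median of all tested probe sets was 0.48 and 10058 rose and 2455 fell against 5159 and 6447 after scaling (6281 and 5226 with the trimmed mean), 7 of the 12 Eya-Six probe sets passed as lower.

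The other 5 probe sets were under the filter. The third Eya1 probe set had 33.2, 43.4 and 7.56 in the knockout, against 21.6, 19.4 and 15.8 in wild type. One Eya3, 2 Eya4 and 1 Six4 probe set were below the array median on every array, with values between 0.500 (Eya4 in the knockout at E12.5) and 18.1 (Eya4 in the knockout at E10.5). They were not tested.

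Markers of tissue around the brain moved with age as well. In bulk tissue, fewer cells of a type and less RNA per cell cannot be told apart. A listed gene high only at some ages can also pass the filter on its mean. The lists were chosen with earlier results of these data known. The counts and medians of these lists, and of those below, are therefore descriptions. Of 14 surface ectoderm genes, 12 were tested. Among these, 11 fell from E9.5 to E12.5 (32.9% of all tested probe sets) and 0 rose (26.3%), with a median change of -3.04. The summed signal of all 14 genes was 2361, 2166 and 193 in the knockout at the 3 ages, against 2111, 1675 and 196 in wild type. Among those that fell were Cdh1, the epithelial cadherin, and Krt18, a simple epithelial keratin, while Krt14 was below the array median on every array. Of 20 head mesenchyme and neural crest genes, 19 were measured and 15 tested. Of these, 13 fell (32.9% of all tested probe sets) and 1, Tbx18, rose (26.3%), with a median change of -2.28. The summed signal of the 19 measured genes was 6945, 7626 and 1658 in the knockout, against 5153, 7249.8 and 2428 in wild type. Osr1, Meox1 and Tcf21 were below the array median throughout. The part of these tissues in the fall of the Eya-Six genes was not tested.

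Early neuron genes went the other way over the same ages. All 10 early neuron genes rose, as 26.3% of all tested probe sets did, with a median change of 4.29. Their summed signal was 639, 1332 and 13516 in the knockout at the 3 ages, against 529, 2227 and 12954 in wild type. Among neuroepithelial genes 5 of 9 rose (26.3% of all tested) and 0 fell (32.9%), with Fabp7 up by 3.87 and Sox2 by 0.70. Their summed signal was 4085, 4381 and 12136 in the knockout, against 4219.7, 5806 and 11390.1 in wild type. The actin probe set ratio given above changed mainly between E9.5 and E10.5, whereas that of Gapdh stayed between 0.823 and 0.949. In the knockout the brightest Six4 probe set changed by -0.45 over that step and by -3.11 over the later one, against -0.66 and -2.74 in wild type. The brightest Eya3 probe set changed by -0.52 and -0.94 in the knockout, against -1.03 and -0.63 in wild type. The part of RNA quality was not tested.

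**Figure D3:**
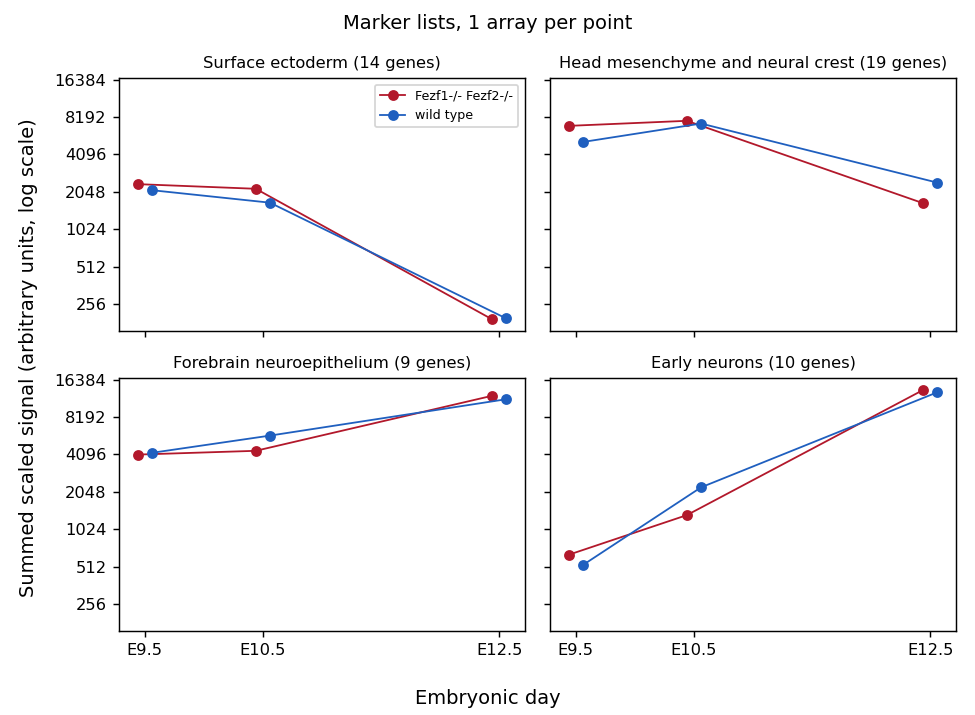
Summed scaled signal (log axis, arbitrary units) of 4 marker lists against embryonic day, 1 array per point, knockout in red and wild type in blue. Surface ectoderm and head mesenchyme sums are lowest at E12.5 in both genotypes (193 and 196, and 1658 and 2428), and the 2 neural sums are highest there.

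Markers of other tissues in which Eya and Six-family genes are known to act were examined too. Lens and ear genes were mostly under the filter: 3 of 10 were tested (Mab21l1 rose, Maf and Tbx1 fell with age), and Foxe3, Pitx3, Cryaa, Oc90 and Lmx1a were below the array median on every array. Their sum was between 343 and 406 in the knockout and between 297 and 404 in wild type. None of 7 measured myogenic genes reached the test, and Myf5, Myog, Msc, Chrna1 and Mymk were below the array median on every array. Preplacodal and olfactory genes were mixed, with 5 of 9 tested rising and 3 falling from E9.5 to E12.5, beside 26.3% and 32.9% of all tested probe sets. Those falling were Tfap2a (-3.05), an ectoderm and neural crest factor, Gata2 (-0.79) and Hesx1 (-1.81), a homeobox repressor of the anterior head. Dlx5, Neurog1, Ebf2, Tfap2c and Sox3 rose, by 0.50 for Tfap2c up to 1.64 for Dlx5. Dlx5, Sox3, Neurog1 and Hesx1 are also known from the forebrain itself.

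The partners of the Eya and Six-family proteins were then set beside them. Of 12 network genes listed, 10 were measured and 9 tested, and 4 fell and 2 rose with age (median change -0.49), beside 32.9% and 26.3% of all tested probe sets. Pax3, a paired-box factor of neural crest and dorsal neural tube, and Six6, an eye and pituitary factor, changed by -3.49 ± 0.26 and -4.97 ± 0.24 (limma adjusted p = 3.98e-06 and 4.49e-07). Sall4, a zinc-finger factor of early embryonic cells, fell by 4.57 ± 0.17 (limma adjusted p = 1.89e-07). The Dach genes, which encode cofactors of both families, went apart: Dach2 fell by 0.77 ± 0.16 (limma adjusted p = 0.00256) and Dach1 rose by 0.40 ± 0.15 (limma adjusted p = 0.0380). Dach2 had 119, 101 and 74.2 in the knockout, against 133, 98.8 and 67.8 in wild type, and Dach1 had 268, 320 and 394 in the knockout, against 317, 245 and 377 in wild type. Pax6, a forebrain and eye factor, rose by 0.43 ± 0.13 (limma adjusted p = 0.0167). Sall1 (0.18), Six3 and Six5 (-0.49, adjusted p = 0.0735) did not pass.

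The second comparison asked whether loss of Fezf1 and Fezf2 changed the Eya-Six genes in the same way at all ages, with age as a block and the 3 ages as the only replicates. No Eya-Six probe set passed: 0 of 12 had an adjusted p under the threshold in limma, and 0 of 12 had an unadjusted p under 0.05, where 881 of 19593 did. By the adjusted rule 0.0051% of all tested probe sets were called higher in the knockout and 0.0255% lower, 0.0306% in all. Of the targeted genes, Fezf2 passed (-4.32 ± 0.28, limma adjusted p = 3.82e-04) and Fezf1 did not (-1.27 ± 0.17, limma adjusted p = 0.0508). A mean difference of 2.41-fold, that of Fezf1, thus missed the threshold. The median of the 12 mean differences was 0.14, and of all tested probe sets 0.01. The smallest unadjusted p was 0.0618, for the brightest Eya1 probe set, whose mean difference was 0.27 ± 0.13 (limma moderated SE, 3 pairs, adjusted p = 0.9999), with a 95% interval from -0.02 to 0.56. For Eya2 it was 0.28 ± 0.19, with an interval from -0.14 to 0.71. The brightest Six4 probe set differed by 0.16 ± 0.13 (-0.13 to 0.45) and Six2 by -0.12 ± 0.15 (-0.46 to 0.22). Eya4 had the largest negative mean at its brightest probe set, -0.30 ± 0.18 (-0.71 to 0.11), and its second gave 0.13 ± 0.18. The intervals of Eya1, Eya2, Six2, Six4 and Eya4 named here reach less than a 2-fold difference in either direction. These means moved when an age was left out: that of the brightest Eya1 probe set was 0.11 without the E10.5 pair and 0.44 without the E12.5 pair, those of the brightest Eya4 ran from -0.53 to -0.07, of Six2 from -0.31 to -0.01, and of the brightest Six4 from 0.06 to 0.25, and none passed.

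**Figure D4:**
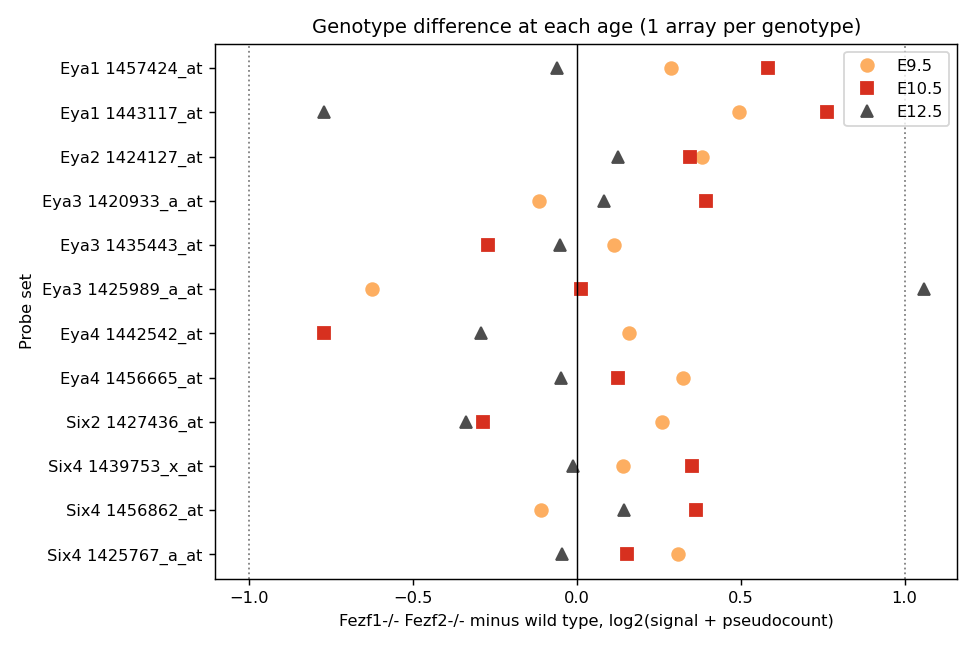
Knockout minus wild-type difference on the log2(signal + pseudocount) scale at E9.5 (circles), E10.5 (squares) and E12.5 (triangles) for the 12 tested probe sets, 1 array per genotype and age, with dotted lines at a 2-fold difference. Both Eya1 probe sets are right of 0 at E9.5 and E10.5 and left of it at E12.5, and 1 point, the dim Eya3 probe set at E12.5, passes a dotted line.

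At single ages, where 1 array stands against 1 and no test was made, the side of most differences depended on the age. At E9.5, 9 of the 12 tested probe sets were higher in the knockout (50.7% of all tested), at E10.5 again 9 (50.1%) and at E12.5 4 (52.9%). On the deposited values these counts were 9, 10 and 9, so the lower count at E12.5 depends on the scaling (4 with the trimmed mean). Their median differences were 0.21, 0.25 and -0.05, against 0.00, 0.00 and 0.01 for all tested probe sets. After quantile scaling Eya2 alone stood above wild type in the knockout each time (0.38, 0.35 and 0.12), as 13% of all tested probe sets were. None, 0 of the 12, was lower each time (11.4% of all). On the deposited values others were higher each time too. Among them were the brightest Eya1 probe set (0.41, 0.92 and 0.09) and the brightest Six4 one (0.24, 0.63 and 0.11). Six2 differed by 0.26, -0.29 and -0.34 at the 3 ages. The head mesenchyme list had median differences of 0.45, 0.07 and -0.54, with 13, 10 and 1 of 15 genes higher in the knockout. The surface ectoderm list had medians of 0.07, 0.35 and 0.04, with 9, 11 and 7 of 12 higher, and the early neuron list 0.42, -0.73 and 0.11, with 9, 0 and 7 of 10 higher. The part of these tissues in the genotype differences was not tested.

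The 3 Eya1 probe sets changed side together. At E9.5 and E10.5 all 3 were higher in the knockout, by 0.29, 0.49 and 0.50 at E9.5 and by 0.58, 0.76 and 0.94 at E10.5, from the brightest to the dimmest. At E12.5 all 3 were lower, by -0.06, -0.77 and -0.67. The third had 7.56 in the knockout and 15.8 in wild type there, both below the array median. The brightest was 0.09 higher at E12.5 on the deposited values. Of all tested probe sets, 7.75% differed more than the brightest Eya1 probe set at E10.5, and 3.71% more than the second. At E12.5 these shares were 75.6% for the brightest and 1.64% for the second. The 3 probe sets share the RNA of the same arrays and are not replicates of the condition.

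Eya4 showed the opposite side at E10.5 at its brightest probe set, with 88.1 in the knockout and 155 in wild type, a difference of -0.77. Its second probe set differed by 0.13 at that age, so the probe sets do not give Eya4 a common direction. By the 2-fold rule (at least 2-fold, with the brighter array above the median of all values) 1 of the 17 Eya-Six probe sets was called, the dim Eya3 probe set at E12.5, with 33.7 in the knockout and 12.8 in wild type (1.06). With a pseudocount of 32 its difference was 0.55 and 0 were called. At that age 0.286% of all single-symbol probe sets were called as higher in the knockout and 0.257% as lower. The 2 brighter Eya3 probe sets differed by 0.08 and -0.05 at E12.5. At E9.5 and E10.5, 0 of 17 were called in either direction, against 0.913% higher and 0.855% lower at E9.5 and 1.06% higher and 1.18% lower at E10.5. The second Eya1 probe set was called at E10.5 on the deposited values (1.05).

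A further fit asked whether the genotype difference changed with embryonic day. Of the 12 Eya-Six probe sets 0 passed in limma, and 2 had an unadjusted p under 0.05, where 726 of 19593 did. By the adjusted rule 0.0051% of all tested probe sets were called. The 2 were the second Eya1 probe set, whose knockout minus wild-type difference changed by -0.47 ± 0.16 per day (unadjusted p = 0.0126), and the dim Eya3 probe set, with 0.56 ± 0.21 per day (unadjusted p = 0.0207), both with a limma adjusted p of 1.0. The fit leaves 1 residual degree of freedom before moderation.

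Genes whose course over the 6 arrays was most like that of each brightest probe set were found by Pearson correlation of log2 values, as a description in which the arrays of an age share their stage. Closest to Six4 were Slc20a2, a phosphate transporter gene, Jdp2, a leucine-zipper factor gene, and Esrp1, an epithelial splicing regulator gene (r = 0.9998, 0.9996 and 0.9996). Esrp1 had 290, 188 and 1.08 in the knockout at the 3 ages, against 286, 134 and 0.650 in wild type. Closest to Six2 were Rnf150, Msx2, a homeobox gene of craniofacial mesenchyme and dorsal midline, and R3hcc1 (r = 0.999, 0.999 and 0.998). Msx2 had 112, 171 and 18.0 in the knockout, against 104, 210 and 25.5 in wild type, and like Six2 it was highest in wild type at E10.5. Pitx1, a homeobox gene of oral ectoderm, came first for Eya1 (r = 0.999) and had 35.2, 39.1 and 13.9 in the knockout, against 32.3, 34.3 and 14.6 in wild type. Cnksr2 and Gnpnat1 followed it (r = 0.999 each). For Eya2 they were Bcat2, Tipin and Kif26b (r = 0.999, 0.998 and 0.998), for Eya3 Slc44a2, Prrc2c and Snx5 (r = 0.999, 0.999 and 0.998), and for Eya4 Tsc22d4, Mtdh and Tomm70a (r = 0.995, 0.992 and 0.991). With 6 arrays and 19593 probe sets, correlations of this size were reached for each of the 6 genes. The correlation ignores the size of a change. From E9.5 to E12.5 Rnf150 changed by -0.33, against -2.35 for Six2. Tipin changed by -0.28, against -1.63 for Eya2, and Slc44a2 by -0.42, against -1.56 for Eya3. Others were nearer in size or larger, such as Msx2 (-2.03) and Esrp1 (-5.32, against -3.48 for Six4).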

How the data were processed

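Each array gives 1 deposited intensity per probe set, linear and made by the authors with MAS5 per the submitters' processing notes. The MAS5 version, scaling and detection calls are not used here. RNA was biotin-labelled by in vitro transcription, per the labels' protocols. Array levels differed (median 14.2 to 37.1, 2% trimmed mean 74.3 to 162), so all 45101 probe sets were quantile normalized and transformed to log2 after adding 6.50, which is the lower quartile of the intensities. A fold change of a dim probe set is therefore understated. Before scaling, the genotype difference had medians of 0.08 (E9.5), 0.26 (E10.5) and 0.21 (E12.5).

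Groups came from the sample titles. By the platform annotation 34958 probe sets name 1 symbol, 932 several and 9211 none that is listed. Entrez identifiers matched 34754 of the first kind to RefSeq (GRCm38.p6), with 0 symbols changed. Lists use the brightest probe set of a gene, and listed genes without a single-symbol probe set were not analysed here.

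Tests used limma 3.58.1 in R 4.3.3 (lmFit, eBayes with a variance trend) on all 6 arrays with genotype and age as terms, with 2 residual degrees of freedom and 9.72 after moderation. Benjamini-Hochberg adjustment ran over all 19593 tested probe sets at 0.05. In these p-values an age stands in for a replicate of genotype and a genotype for a replicate of age, so they measure the spread among 6 arrays that may be technical. The filter uses the mean over all arrays, so a probe set high at 1 age can pass through it. The code was tested on simulated data. Alternatives were the scaling, pseudocount, filter, variance trend, probe set choice, age block and leaving out an age. All probe sets of the 6 genes are described, and from lists the genes that passed or were brightest, and the 3 most alike in course. The genes and lists were chosen with earlier results of these data known. Sequences are RefSeq's.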

Additional observations from a re-analysis of the deposited data

How the results depend on the processing

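No Eya-Six probe set passed for genotype under any of the 11 settings (0 in limma, with 0 to 2 at an unadjusted p under 0.05), and for age 7 to 10 of 12 passed as lower (9 of 17 without the filter, and 6 of 6 with the brightest probe set of each gene). Of 78 alternative values for the age change, 68 kept direction and side of the threshold. On the deposited values the second Eya3 probe set was at 0.20, the dim Eya3 one at 0.22 and the Eya4 ones at 0.15 and 0.24, all turned to higher and none passing, where the median of all was 0.48. Of 114 alternative values for genotype, 107 kept their direction and 0 passed. The second Eya1 probe set turned to -0.0040 without the E9.5 pair and -0.14 without the E10.5 pair (leaving out an age, -0.14 to 0.63). Without the E10.5 pair the brightest Eya3 probe set turned to -0.017 (-0.017 to 0.24) and the second to 0.030 (-0.16 to 0.030), and without the E12.5 pair the dim one turned to -0.30 (-0.30 to 0.54). On the deposited values the second Eya3 probe set was at 0.10 and Six2 at 0.039. The cause was not tested.

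Over all probe sets, 1 was called higher and 5 lower for genotype. The higher count was 10 on the deposited values, 2 with pseudocount 32 or the brightest probe sets, 0 without the filter, the trend or the age block (1588, 922 and 36 at an unadjusted p under 0.05 in either direction), and 1 to 6 leaving out an age. The lower count was 9, 2, 1 and 0 with pseudocount 32, without the filter, the trend and the block, and 2 to 11 leaving out an age. For the age change the brightest probe sets, with fewer features tested, gave 2857 higher and 4103 lower, and the deposited values 10058 and 2455. Genotype by day gave 9 higher and 8 lower on the deposited values, 3 and 3 with the trimmed mean, 3 and 5 with pseudocount 32, and 0 lower without the filter, the trend or with the brightest probe sets (1064, 792 and 406 at an unadjusted p under 0.05 in limma). By the 2-fold rule, higher and lower, pseudocount 32 gave 19 and 28 at E9.5, 18 and 36 at E10.5 and 16 and 19 at E12.5, and the brightest probe sets 161 and 134, 149 and 199, and 58 and 43. The trimmed mean gave 201 higher at E9.5, 196 higher at E10.5 and 163 lower at E12.5. The deposited values gave 64 lower at E10.5, and 472 higher and 206 lower at E12.5. Probe sets near the array median have little signal over background, and 6 arrays limit the precision throughout.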
